A study of Saccharomyces cerevisiae with 14 samples.

Results

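XUTs are Xrn1-sensitive unstable transcripts of budding yeast (Saccharomyces cerevisiae), RNAs that were catalogued because they build up in cells without the exonuclease Xrn1. The 1658 XUTs described here are every row of the deposited feature table with the biotype XUTs, out of 12449 features left after 100 fully repeated rows were removed, and no XUT row was repeated. All cells were of strain W303U, of mating type MATa, with the marker alleles ade2-1, his3-11,15, trp1-1, leu2-3,112 and can1-100, grown at 30 °C. The labelled groups received 500 µM 4-thiouracil (4tU), a uracil analogue that is built into new RNA and captured through its thiol group, for 1.5, 2.5 or 5 min, with 3 libraries each from timecourses 1, 2 and 3. The other groups were a background carried through without label (n = 2) and total RNA depleted of ribosomal RNA (rRNA) from the same 3 timecourses (n = 3). For 1 of the 2 background samples the title says no label while another label reads as depleted total RNA, and the title set its group. No sample is labelled as lacking Xrn1.

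Xrn1 is the main cytoplasmic exonuclease of yeast. It digests RNA from the 5′ end once the decapping enzyme Dcp2 has removed the cap, and nonsense-mediated decay, with Nam7 (Upf1) at its centre, feeds many non-coding RNAs into that route. XUTs are made by RNA polymerase II, and most of them lie antisense to protein-coding genes. The related CUTs (cryptic unstable transcripts) are degraded mainly in the nucleus by the exosome, and SUTs are stable unannotated transcripts.

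Of the 1658 XUTs, 846 were named on the forward and 812 on the reverse strand. Lengths, recovered from the ratio of the deposited counts to the deposited RPKM (reads scaled to feature length and library depth), were available for 1657 and had a median of 661 nt (quartiles 417 and 1080 nt, range 252 to 5195 nt). The median was 227 nt for CUTs, 753 nt for SUTs and 1320 nt for protein-coding features. A single XUT had no count in any library. Coding rows follow their R64 start on each strand almost throughout (5936 of 5954 neighbouring pairs), and that order placed 1641 XUTs between 2 coding genes of known R64 position on their own strand, with a median of 7751 nt between those 2 starts. The exact ends of the XUTs were not used here.

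What an XUT row counts bears on every value below. In 62 pairs of protein-coding features annotated on opposite strands, both rows had identical counts in all 14 libraries, so for these pairs the counts carry no strand information. In 60 of them the 2 rows also had identical length. Many XUT rows followed an opposite-strand gene closely, but with rows that could differ in length, as for XUT_4R-155 (1021 nt) and NPC2 (1204 nt). Why the counts agree was not tested. Each XUT was set beside the genes around it by Pearson's r of log2 CPM (counts scaled to library size, with 1 added to each count) over the 14 libraries. For 252 XUTs the best gene on the opposite strand reached r over 0.99, against 2 XUTs for the best gene on the same strand. Over 0.95 the numbers were 589 and 102. In 123 of the 252, but in none of the same-strand pairs, the XUT row also held 90 to 110% of the gene's count. The best r was taken over a median of 3 opposite-strand and 2 same-strand genes, and both thresholds were chosen after the values were seen. These CPM were scaled by library size alone, so differences in composition between libraries, which many rows share, enter r. The median best r was 0.83 on the same strand. These numbers are therefore a description. Below, an XUT said to lie opposite a gene is set beside the opposite-strand gene of best r in its stretch, and no overlap of the 2 was read.

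The pair XUT_4R-155 and NPC2 is shown because its 2 rows cannot be told apart. NPC2, a sterol-binding protein gene, lies on the forward strand of chromosome IV, and XUT_4R-155 is named on the reverse strand between the starts of STP4 and FAD1. The XUT row had 484 reads where NPC2 had 484 in 1.5 min replicate 1, and 13524 where NPC2 had 13526 in total RNA replicate 2 (r = 1.00). The widest gap among the 14 libraries was in 5 min replicate 3, with 1388 and 1402 reads. The first 60 bases of the NPC2 coding region (RefSeq R64, chrIV:371240-371299) are given as the gene strand and as the strand the XUT is named on, with the start codon or its complement in capitals. Whether the XUT reaches these bases was not read from any file.
NPC2, gene strand: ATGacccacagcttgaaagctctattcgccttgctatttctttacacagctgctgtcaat
XUT_4R-155, its named strand: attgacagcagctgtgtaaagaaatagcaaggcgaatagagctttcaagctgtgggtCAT

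XUT_8R-174 was a near match to NDT80, the gene of a meiotic transcription factor on the forward strand of chromosome VIII. Their counts differed little, with the XUT row at 94.7 to 110% of NDT80 over the 14 libraries (r = 1.00). The first 60 bases of NDT80 (R64, chrVIII:356561-356620) are shown in the same way.
NDT80, gene strand: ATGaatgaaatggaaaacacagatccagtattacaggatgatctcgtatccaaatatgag
XUT_8R-174, its named strand: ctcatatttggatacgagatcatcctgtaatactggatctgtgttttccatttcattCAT

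XUT_2F-118, a 316-nt XUT with the most negative fold change against total RNA at 1.5 min among those named, paired with a small nucleolar RNA. snR161 (R64, chrII:307185-307345, reverse strand) is an H/ACA guide RNA of 161 bases, shown whole because it lies within the stretch between YBR032W and CHS2 where the table places the XUT. The capitals mark its ACA box, 3 bases from the 3′ end.
snR161: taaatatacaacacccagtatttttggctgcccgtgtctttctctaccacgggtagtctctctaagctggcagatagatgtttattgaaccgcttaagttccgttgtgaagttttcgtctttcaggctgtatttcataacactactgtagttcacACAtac

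The XUT_2F-118 row held 148, 152 and 150% of the snR161 count at 1.5 min. After 2.5 min it held 119, 126 and 135%, and after 5 min 113, 116 and 106%. Its row held 100.2 and 102% of the snR161 count without label and 101, 99.4 and 99.9% in total RNA. The 9 labelled libraries all lay above the other 5, and the 3 libraries of each labelling time did not overlap those of the next. In total RNA the 2 rows were thus of equal size, while at 1.5 min the XUT row held reads beyond the snoRNA row. This pair was found after its values were seen, and of 397 rows of non-coding RNA (snoRNA, snRNA, tRNA and others) only the 121 that could be matched by name to R64 were searched. One more XUT, XUT_9F-189, reached r over 0.95 with such an RNA, the non-coding RNA PWR1 on its own strand (r = 0.96).

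**Figure D1:**
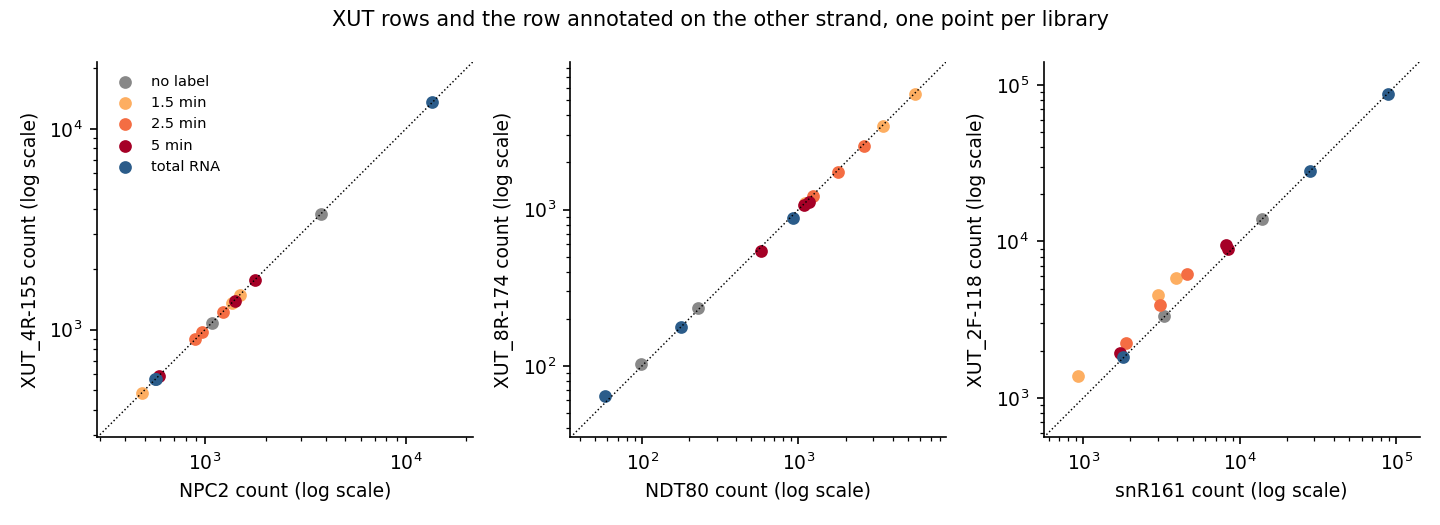
Counts of an XUT row (y, log scale) against counts of the row annotated on the other strand (x, log scale), 1 point per library, with the dotted line of equality. XUT_4R-155 and XUT_8R-174 follow NPC2 and NDT80 along the line in all 14 libraries, and XUT_2F-118 lies on the line in total RNA and above it after 1.5 min of labelling (148 to 152% of snR161).

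**Figure D2:**
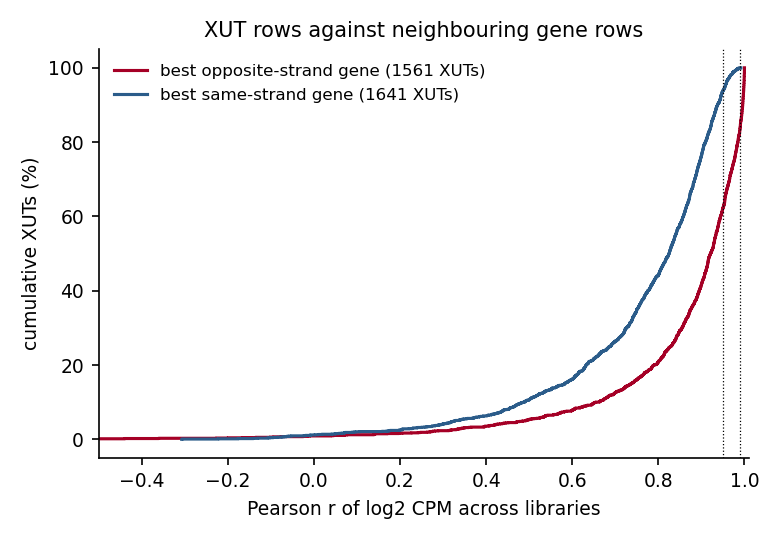
Cumulative share of XUTs (y, %) by the highest Pearson r over 14 libraries (x) to a gene on the opposite strand (1561 XUTs with such a gene) or on the same strand (1641 XUTs), with dotted lines at 0.95 and 0.99. The opposite-strand curve lies to the right over most of the range, with a median r of 0.92 against 0.83.

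The labelled libraries held 7206103 to 25891855 counts, the no-label libraries 13627513 and 37181457, and the total RNA libraries 3618310, 65173280 and 21361270. XUTs were well covered after labelling, with 2 to 21 of the 1658 at 0 per library. Total RNA replicates 1 and 3 stood apart, with 330 and 453 XUTs at 0, against 3 in replicate 2, and median XUT counts of 8 and 9, against 209. The no-label libraries had 102 and 66 XUTs at 0, and rRNA features took 51.2 and 55.4% of their counts. The a-specific genes of MATa cells were detected apart from AGA2 in total RNA replicate 3. Of the α-specific genes MF(ALPHA)1 had 0 to 21 counts per library and MF(ALPHA)2 0 to 169, but SAG1 (53 to 1504) and STE3 (4 to 474) were above 0 throughout. The replicates of the labelled groups and of total RNA are the numbered timecourses, while the no-label columns carry no timecourse number. The p-values given treat the libraries as independent, with no term for timecourse. Same-numbered libraries deviated together (r of 0.25 to 0.88), so these p-values do not measure the spread between 3 timecourses alone.

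XUT rows took a larger share of the counts in labelled RNA than in total RNA at every labelling time. Of all counts outside rRNA features they held 6.43, 6.79 and 7.02% in timecourses 1, 2 and 3 at 1.5 min. After 2.5 min they held 6.24, 5.70 and 6.25%, and after 5 min 4.98, 4.59 and 5.14%. Total RNA of the same timecourses held 2.08, 2.70 and 2.20%. Every labelled library lay above every total RNA library. The means were 6.74% ± 0.298 at 1.5 min, 6.06% ± 0.317 at 2.5 min and 4.90% ± 0.281 at 5 min, against 2.33% ± 0.327 in total RNA (SD, n = 3 each).

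On the log2 scale the share at 1.5 min was 1.54 higher than in total RNA, a ratio of geometric means of 2.91. At 2.5 min the difference was 1.39 and at 5 min 1.08. Each gave p = 0.10 in the exact two-sided permutation test over libraries, the smallest that 3 against 3 allows, and 0.125 after Benjamini-Hochberg adjustment over the 5 share comparisons. Within timecourses the labelled share was 2.51 to 3.19 times the total RNA share at 1.5 min, 2.11 to 2.99 times at 2.5 min and 1.70 to 2.39 times at 5 min. Timecourse 2 gave the lowest ratio at each time. A share does not tell more XUT RNA from less of all other RNA.

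The share was lower at 5 min than at 1.5 min in every timecourse. It was 0.68 to 0.77 times as large within timecourses, a log2 difference of -0.46 (exact two-sided permutation p = 0.10, n = 3 each), and the 2 sets of libraries did not overlap. The no-label libraries held 2.29 and 4.59%, a mean of 3.44% ± 1.62 (SD, n = 2), against the 2.33% ± 0.327 of total RNA. One lay inside the range of total RNA and the other near the 5 min libraries, and the difference gave p = 0.40 (exact two-sided permutation, 2 against 3, smallest possible 0.20).

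The 1027 XUTs with no protein-coding gene row at r over 0.95 on either strand showed the same order at a lower level. They took 2.66% ± 0.214 of counts at 1.5 min, 2.43% ± 0.307 at 2.5 min and 1.94% ± 0.289 at 5 min, against 1.12% ± 0.293 in total RNA (SD, n = 3 each). The 589 XUTs tied to an opposite-strand gene took 3.98% ± 0.227, 3.56% ± 0.259 and 2.90% ± 0.177 at 1.5, 2.5 and 5 min, against 1.2% ± 0.340 in total RNA. The log2 difference between labelled and total RNA was 1.28, 1.14 and 0.81 for the XUTs without such a gene at the 3 times. This division was made after the values were seen, and a row without such a gene may still hold reads of one. The 1027 had a lower median level (12.7 RPKM in labelled RNA, against 25.5 for the 589), and XUTs with no candidate gene were put among them. They include XUT_2F-118, whose counts follow snR161, with 87769 and 28023 counts in total RNA replicates 2 and 3.

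**Figure D3:**
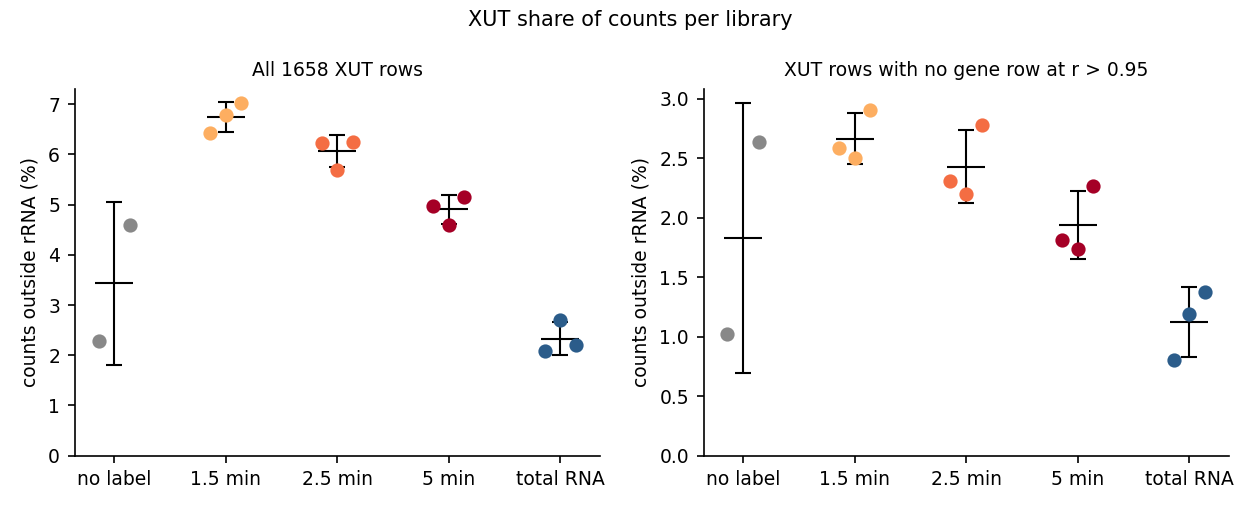
Share of counts outside rRNA features (y, %) held by all 1658 XUT rows and by the 1027 without a closely correlated protein-coding gene row, 1 point per library, with mean and SD. In both panels the labelled libraries lie above the 3 total RNA libraries, and the 2 no-label libraries lie far apart (2.29 and 4.59% for all XUTs).

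Set against the 2 most similar classes within each library, XUT rows held more per CUT count in labelled than in total RNA, and nearly as much per SUT count. These are ratios of summed counts, and the medians over single features, given below, were higher for CUTs than for XUTs. They held 1.33 ± 0.0237 counts per CUT count at 1.5 min, 1.29 ± 0.119 at 2.5 min and 1.12 ± 0.0983 at 5 min, against 0.776 ± 0.181 in total RNA (SD, n = 3 each), with no overlap. Per SUT count they held 1.64 ± 0.0390, 1.63 ± 0.0320 and 1.72 ± 0.0499 counts at the 3 times, against 1.80 ± 0.129 in total RNA. The exact two-sided permutation test over libraries gave p = 0.10 for XUT to CUT at each time, and 0.20, 0.10 and 0.40 for XUT to SUT at 1.5, 2.5 and 5 min. After Benjamini-Hochberg adjustment over these 6 tests the lowest value was 0.15. Per length, the median XUT had 13.3 to 24.6 RPKM in the 1.5 min libraries, 13.7 to 19.8 at 2.5 min and 11.2 to 13.8 at 5 min, against 0.635 to 4.75 in total RNA. At 1.5 min SUTs and protein-coding features had similar levels. The median SUT was at 13.0 to 24.6 RPKM, against 1.09 to 4.63 in total RNA. The median protein-coding feature was at 13.0 to 25.9 RPKM, against 3.52 to 7.75. CUTs were lower than XUTs, with a median of 7.48 to 14.5 RPKM at 1.5 min, against 0 to 3.22 in total RNA.

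Single XUTs were compared with edgeR's quasi-likelihood test fitted over all features, with TMM scaling and Benjamini-Hochberg adjustment over all features tested. TMM scales libraries so that most features do not differ, and the fold changes are therefore relative to the bulk of features. At 1.5 min against total RNA, 191 of 1642 XUTs tested were higher and 87 lower at an adjusted p under 0.05, and 1364 did not pass. Over all 11513 features 6.71% were called higher and 11.4% lower, against 11.6% and 5.30% of the XUTs. The median log2 fold change was 0.67 for XUTs and 0.03 for all features, with CUTs at 0.78, SUTs at 0.70 and protein-coding features at -0.20. Scaled by library size alone, the median of all features was 1.97 and that of XUTs 2.59. That scaling gave 1077 higher and 3 lower calls among XUTs, against 6587 and 90 over all 11513 features. The split between higher and lower thus depends on the scaling, while the XUT median stayed above that of all features under both.

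The count of calls also depended on single libraries. It was 63, 83 and 81 higher and 38, 42 and 45 lower without 1.5 min replicates 1, 2 and 3. It was 152, 402 and 409 higher and 102, 119 and 149 lower without total RNA replicates 1, 2 and 3. Over all features the calls also rose without total RNA replicate 3, from 773 to 1740 higher and from 1311 to 2042 lower. For the other omissions no counts over all features are given, so the XUT counts have no background beside them. Leaving out whole timecourses gave 7, 0 and 325 higher and 11, 0 and 141 lower for timecourses 1, 2 and 3. All 56 calls of XUTs named in the text by their fold change lost the threshold in at least 1 fit with a library or timecourse left out, and none changed sign.

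Of the 8 XUTs named for their rises at 1.5 min, XUT_13F-3, a 934-nt row on chromosome XIII between YML131W and RSC9, had 93.0, 31.4 and 33.4 CPM (TMM-scaled) at 1.5 min, against 2.52, 3.66 and 0.291 CPM in total RNA (log2 fold change 4.56 ± 0.90 SE, edgeR adjusted p = 0.00539). Every 1.5 min library lay above every total RNA library, as the choice of these XUTs required. XUT_1F-15, between YAL064W and the glutamate dehydrogenase gene GDH3, had 18.7, 13.4 and 13.9 CPM, against 0, 1.61 and 0 CPM in total RNA (4.29 ± 0.92, edgeR adjusted p = 0.00841). XUT_11F-216, between RPC37, of RNA polymerase III, and BCH2, had 14.6, 12 and 9.20 CPM, against 0, 1.27 and 0 CPM in total RNA (4.23 ± 0.91, edgeR adjusted p = 0.00850).

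Another 3 rises were less even between timecourses. XUT_10R-242, 271 nt long and placed before SOD1, the copper-zinc superoxide dismutase gene, had 20.7, 3.85 and 6.24 CPM at 1.5 min, against 0, 0.727 and 0 CPM in total RNA (4.70 ± 1.15, edgeR adjusted p = 0.0162). XUT_11F-68, before MCR1, had 13.1, 5.33 and 3.90 CPM, against 0, 0.571 and 0 CPM (4.55 ± 1.13, edgeR adjusted p = 0.0175). XUT_16F-145, before MSD1, had 43.3, 6.19 and 20.5 CPM, against 1.89, 2.10 and 0 CPM (4.14 ± 1.13, edgeR adjusted p = 0.0268). Groups did not overlap in any of the 3, as their choice required, and timecourse 1 was highest among the labelled libraries each time.

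A pair of XUTs passed on very few reads. XUT_8F-229 had 17, 20 and 16 counts at 1.5 min and none in total RNA, which at a floor of 3 counts per library gives no usable fold. XUT_15R-84 had 7, 20 and 54 counts at 1.5 min, against 0, 2 and 0 in total RNA, a ratio of scaled sums of 22.2 with a 95% exact counting interval of 5.95 to 187. That interval covers counting error only.

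Among XUTs that fell at 1.5 min, XUT_2F-118, whose counts follow snR161, had 118, 157 and 131 CPM at 1.5 min, against 1146, 2280 and 4078 CPM in total RNA (-4.21 ± 0.49, edgeR adjusted p = 0.000439). XUT_16F-100, opposite PEP4, the vacuolar protease gene (r = 0.99), had 80.4, 80.6 and 71.4 CPM, against 947, 803 and 599 CPM (-3.34 ± 0.38, edgeR adjusted p = 0.000404). XUT_14R-21, opposite the cell wall gene TOS6 (r = 0.99), had 32.9, 32.3 and 31.2 CPM, against 204, 425 and 182 CPM (-3.07 ± 0.38, edgeR adjusted p = 0.000527). In all 3 the labelled libraries lay close together and far below total RNA, where the choice of XUTs required no overlap. PEP4 and TOS6, like the genes called opposite below, were picked by r and not by a known overlap.

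XUT_3F-45, opposite ILV6 of branched-chain amino acid synthesis (r = 0.98), had 50.4, 58.9 and 17.1 CPM at 1.5 min, against 513, 548 and 71.6 CPM in total RNA (-3.17 ± 0.76, edgeR adjusted p = 0.0144). XUT_4F-605, opposite the dynein light chain gene DYN2 (r = 0.97), had 6.95, 7.98 and 5.99 CPM, against 17.6, 20.8 and 137 CPM (-3.08 ± 0.68, edgeR adjusted p = 0.00988). Without total RNA replicate 3, the highest library, XUT_4F-605 was at -1.47 and still passed. XUT_7F-44, between CLG1 and VAM7, had 0.343, 0.550 and 0.357 CPM, against 1.26, 4.42 and 14.4 CPM (-4.02 ± 1.13, edgeR adjusted p = 0.0298), and without total RNA replicate 3 it was at -2.90 and no longer passed (edgeR adjusted p = 0.0502).

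**Figure D4:**
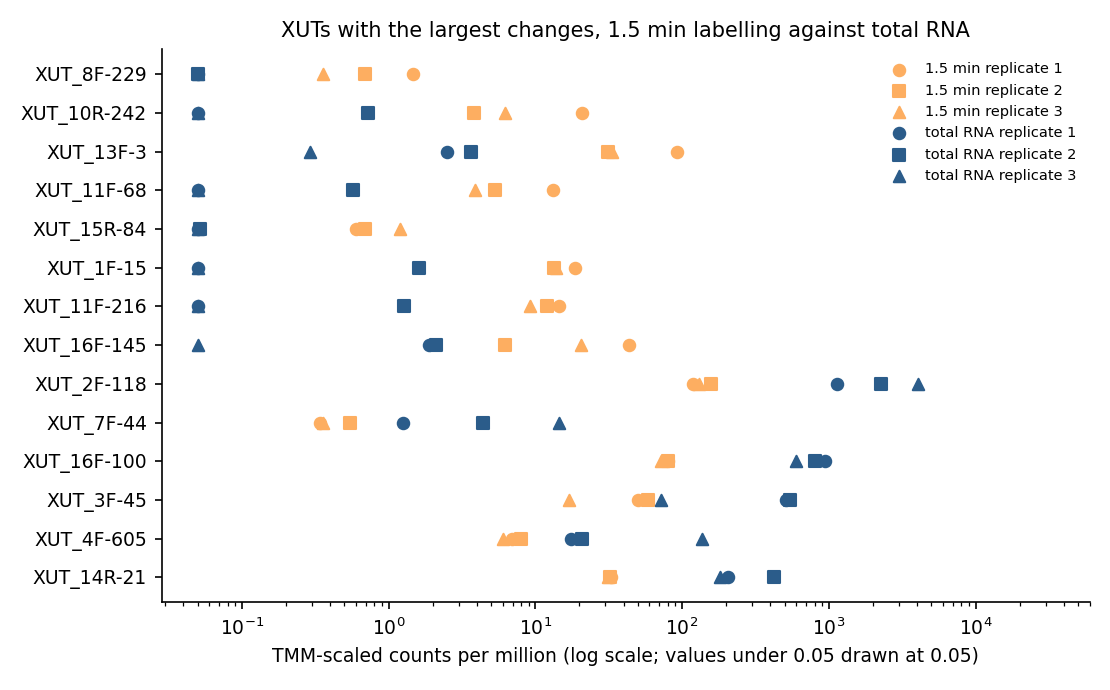
TMM-scaled CPM (x, log scale, values under 0.05 drawn at 0.05) of the 14 XUTs with the largest rises (upper 8) and falls (lower 6) at 1.5 min, 1 symbol per library. The 1.5 min libraries do not overlap total RNA in any of them, as the choice of rows required, and total RNA replicates 1 and 3 lie at 0 for many of the upper 8.

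Fewer XUTs, and fewer of all features, were called higher at the longer labelling times. At 2.5 min against total RNA 108 of 1642 XUTs were higher (6.58%) and 77 lower (4.69%). Over all features 4.86% were higher and 10.2% lower. At 5 min 58 XUTs were higher (3.53%) and 68 lower (4.14%), where 3.26% of all features were higher and 8.47% lower. The share of XUTs called higher at 5 min was thus close to that of all features. The median XUT log2 fold change was 0.60 at 2.5 min and 0.43 at 5 min, against 0.11 and 0.13 over all features. CUTs were at 0.88 and 0.72, above XUTs, and SUTs at 0.66 and 0.43. These comparisons share their total RNA libraries with the one at 1.5 min.

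With the timecourse as a block, 169 XUTs passed as higher and 102 as lower at 2.5 min, and 93 as higher and 97 as lower at 5 min. Over all features the block also gave more calls, with 859 higher and 1574 lower at 2.5 min, against 559 and 1174 without it. At 5 min the block gave 634 higher and 1388 lower over all features, against 375 and 975. Dropping total RNA replicates 1, 2 and 3 in turn left 96, 352 and 304 rises and 86, 106 and 150 falls among XUTs at 2.5 min. The same omissions left 41, 285 and 187 rises and 88, 115 and 156 falls at 5 min. Without total RNA replicate 3, calls over all features rose to 1514 higher and 1874 lower at 2.5 min. At 5 min they rose to 1272 and 1705. Dropping the labelled replicates in turn left 41, 54 and 40 rises and 45, 37 and 36 falls at 2.5 min, and 14, 22 and 11 rises with 27, 36 and 29 falls at 5 min. Dropping timecourses 1, 2 and 3 left 1, 0 and 203 rises and 7, 0 and 128 falls at 2.5 min, and 0, 0 and 115 rises with 0, 0 and 117 falls at 5 min.

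XUT_13F-3 stayed among the largest rises, with 96.8, 26.2 and 25.8 CPM at 2.5 min and 46.4, 20.5 and 21.8 CPM at 5 min, against 2.52, 3.66 and 0.291 CPM in total RNA (log2 fold changes 4.48 ± 0.89 and 3.73 ± 0.87, edgeR adjusted p = 0.00704 and 0.0184). At 2.5 min XUT_10R-21, placed between the cell cycle kinase gene SWE1 and ATG36, had 23.7, 17.2 and 23.1 CPM, against 0, 3.25 and 0.146 CPM in total RNA (3.82 ± 0.87, edgeR adjusted p = 0.0128). XUT_16R-343, between MRD1 and the cyclin gene CLB5, had 13.9, 10.4 and 30.2 CPM at 2.5 min, against 1.89, 2.00 and 0 CPM (3.84 ± 0.89, edgeR adjusted p = 0.0148). In all 3 the labelled libraries lay above total RNA, as their choice required.

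XUT_2R-271 had 20 to 95 counts over all 1.5 and 2.5 min libraries and 0, 6 and 0 in total RNA (log2 fold change at 2.5 min 4.29 ± 0.98, edgeR adjusted p = 0.0136). At 5 min XUT_14R-219, placed between the mitochondrial porin gene POR1 and YNL050C and correlated with YNL050C on its own strand (r = 0.96), had 18.4, 14.7 and 25.4 CPM, against 2.52, 2.44 and 0.146 CPM in total RNA (3.57 ± 0.71, edgeR adjusted p = 0.00867). XUT_16F-233, between SUT2 and the chromatin assembly gene RLF2, had 17, 7.67 and 21.7 CPM, against 1.89, 1.79 and 0 CPM (3.71 ± 0.89, edgeR adjusted p = 0.0205). XUT_6F-104, before the proteasome gene RPN12, had 11.5, 14.1 and 15.5 CPM at 5 min, against 0.629, 2.42 and 0 CPM (3.5 ± 0.88, edgeR adjusted p = 0.0252). These rows were low in all 3 total RNA libraries.

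Other rises at 5 min were smaller or rested on fewer reads. XUT_2F-169, before the filamentation factor gene TEC1, had 25.0, 9.34 and 18.8 CPM, against 4.40, 1.48 and 0.582 CPM (3.30 ± 0.77, edgeR adjusted p = 0.0179). XUT_5F-98, between GCD11 and CHZ1, had 5.30, 5.11 and 12.2 CPM, against 0.629, 1.0 and 0 CPM (3.65 ± 0.99, edgeR adjusted p = 0.0344). XUT_13R-242, between TIF34 and IMP1, had 1.23, 1.07 and 1.35 CPM, against 0, 0.182 and 0 CPM (3.36 ± 0.87, edgeR adjusted p = 0.0279).

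Among the falls, XUT_15R-29, opposite ZPS1, a zinc-regulated cell surface gene (r = 1.00), had 6.84, 14.9 and 15.9 CPM at 2.5 min and 5.2, 15.6 and 10.9 CPM at 5 min, against 107, 265 and 75.5 CPM in total RNA (-3.58 ± 0.72 and -3.82 ± 0.72, edgeR adjusted p = 0.00709 and 0.00662). At 1.5 min it had 47.1, 93.2 and 16.9 CPM. XUT_10F-136, opposite the secreted sterol-binding gene PRY1 (r = 0.98), had 41.1, 36.5 and 29.8 CPM at 2.5 min, against 363, 284 and 166 CPM (-2.92 ± 0.35, edgeR adjusted p = 0.000609). XUT_2F-118 had 183, 282 and 293 CPM at 5 min, against 1146, 2280 and 4078 CPM (-3.31 ± 0.47, edgeR adjusted p = 0.00167). XUT_11F-205 had 0.473, 1.96 and 1.21 CPM at 5 min, against 8.18, 5.51 and 58.9 CPM (-4.29 ± 1.13, edgeR adjusted p = 0.0307), and without total RNA replicate 3 it was at -2.37 and did not pass (edgeR adjusted p = 0.0778).

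**Figure D5:**
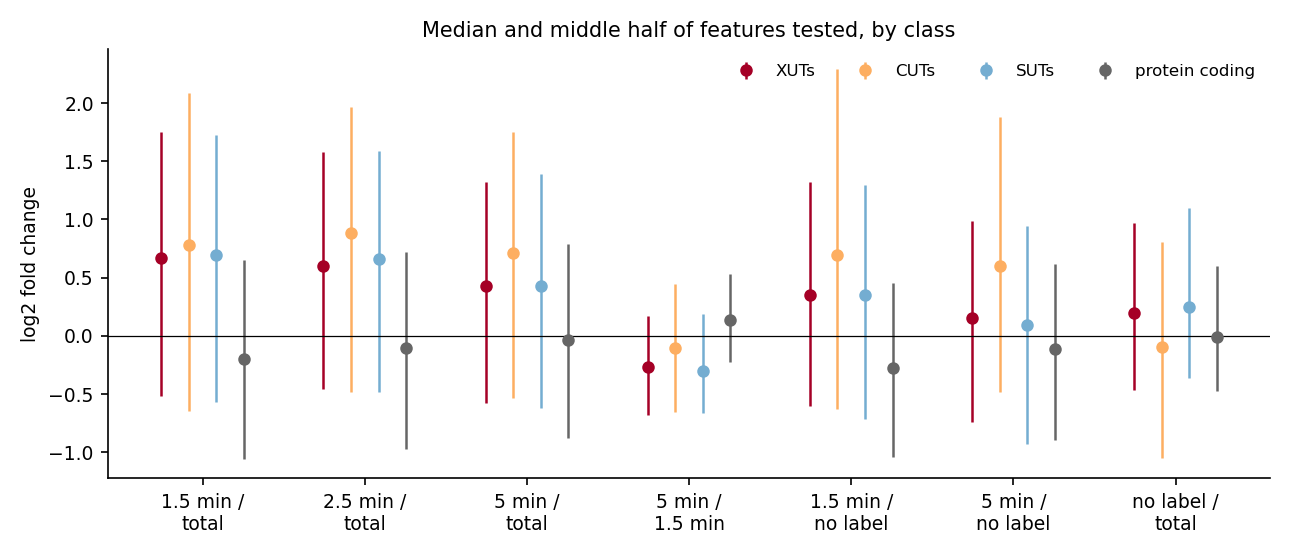
Median log2 fold change (points) and quartile range (lines) of the features tested in XUTs, CUTs, SUTs and protein-coding features, for the 7 comparisons. XUT medians are 0.67, 0.60 and 0.43 at 1.5, 2.5 and 5 min against total RNA, close to SUTs, below CUTs and above protein-coding features. At 5 against 1.5 min the XUT median is -0.27.

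Of the labelling times, 5 and 1.5 min were compared. At 5 min against 1.5 min edgeR called 0 of 1642 XUTs in either direction, where 0.0% of all features were called higher and 0.0% lower. At an unadjusted p under 0.05, 14 XUTs were higher and 60 lower, against 449 and 305 of all 11513 features. DESeq2 called 1 XUT higher and 13 lower, against 46 and 58 over all features. The median XUT log2 fold change was -0.27, against 0.05 over all features, and 546 of the 1642 were above 0. In TMM-scaled CPM all 5 min libraries lay below all 1.5 min libraries for 373 XUTs and above for 94. Over all 11513 features the numbers were 1534 below and 1639 above.

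The 4 smallest unadjusted p-values belonged to XUTs that correlated with an opposite-strand gene over 0.95. XUT_11F-207, opposite FPT1 (r = 1.00), had 31.5, 24.4 and 28.1 CPM at 5 min, against 78.0, 71.3 and 84.0 CPM at 1.5 min, with 45.4 to 58.5 CPM at 2.5 min (log2 fold change -1.47 ± 0.25, edgeR adjusted p = 0.205). XUT_6R-86, opposite ROG3, had 7.38, 8.89 and 8.11 CPM at 5 min, against 26.2, 47.6 and 26.1 CPM (-2.03 ± 0.40, edgeR adjusted p = 0.284). XUT_15R-249, opposite CEX1, had 44.2, 29.7 and 35.9 CPM, against 161, 108 and 90.9 CPM (-1.71 ± 0.34, edgeR adjusted p = 0.284). XUT_8R-174, whose counts follow NDT80, had 51.4, 33 and 35 CPM, against 94.1, 118 and 123 CPM (-1.49 ± 0.30, edgeR adjusted p = 0.284). The libraries of the 2 times did not overlap in any of the 4.

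Against the no-label background, 34 of 1652 XUTs were higher at 1.5 min and 26 lower, where 1.44% of all 11688 features were higher and 3.35% lower. Of the XUTs 2.06% were higher and 1.57% lower, with a median log2 fold change of 0.35, against -0.09 over all features. At 5 min only XUT_13F-370 was higher and 3 XUTs were lower, where 0.0599% of all features were higher and 0.282% lower. Leaving out any 1 labelled library gave 0 calls in both comparisons. Without no-label replicates 1 and 2 the 1.5 min calls were 38 and 28 higher and 37 and 35 lower, and the 5 min calls 16 and 5 higher and 28 and 31 lower. The no-label arm is then a single library, assumed to vary like the other groups, so these calls are no check of the no-label spread. Scaled by library size alone, 915 XUTs passed as higher and 0 as lower at 1.5 min, and 705 as higher and 1 as lower at 5 min. Over all 11688 features, 6005 passed as higher and 10 as lower at 1.5 min, and 5275 and 6 at 5 min.

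XUT_5R-165, between AST2 and the nuclear pore gene NUP157, had 5.06, 4.64 and 5.90 CPM at 1.5 min and no read in either no-label library, at least 13.0-fold higher at a floor of 3 counts per library (edgeR adjusted p = 0.0299). XUT_5R-74 had 3.09, 3.13 and 4.90 CPM and none without label, at least 9.24-fold higher (edgeR adjusted p = 0.0313). XUT_14F-219 had 3.09, 0.997 and 2.47 CPM and none without label, at least 5.45-fold higher (edgeR adjusted p = 0.0271). XUT_2F-282 and XUT_10R-242 had a single read in the no-label libraries, with ratios of scaled sums of 85.2 (95% exact counting interval 15.2 to 3373) and 114 (20.4 to 4521). XUT_13F-370, between JNM1 and the carboxypeptidase gene PRC1, had 27.9, 20.7 and 12.3 CPM at 5 min, against 1.54 and 1.58 CPM without label (3.7 ± 0.68, edgeR adjusted p = 0.0451).

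Among rows lower than the background, XUT_2F-118 had 118, 157 and 131 CPM at 1.5 min, against 1523 and 527 CPM without label (-2.92 ± 0.59, edgeR adjusted p = 0.0202). XUT_4R-155, which cannot be told from NPC2, had 41.5, 46.6 and 33.1 CPM, against 412 and 170 CPM (-2.85 ± 0.58, edgeR adjusted p = 0.0203). XUT_5F-129, opposite HMF1 (r = 0.97), had 34.9, 35 and 23.2 CPM at 5 min, against 197 and 123 CPM (-2.36 ± 0.36, edgeR adjusted p = 0.0316). In these 3 both no-label libraries lay above the labelled libraries compared, as their choice required. Without no-label replicate 2 their log2 fold changes were -3.49, -3.35 and -2.66.

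In other falls no-label replicate 2 was far above replicate 1. XUT_9R-183, opposite the allantoin permease gene DAL4 (r = 0.98), had 11.9, 12.5 and 8.87 CPM at 1.5 min, against 19.9 and 360 CPM without label (-4.10 ± 1.04, edgeR adjusted p = 0.0407). Without no-label replicate 2 it was at -0.84 (edgeR adjusted p = 0.69). XUT_7R-411, opposite PMT6 (r = 1.00), had 38.3, 35 and 85.2 CPM, against 128 and 1072 CPM (-3.51 ± 0.83, edgeR adjusted p = 0.0332), and was at -1.28 without that library (edgeR adjusted p = 0.383). XUT_13F-54 had 5.58, 5.54 and 24.1 CPM, against 38.1 and 205 CPM, and its log2 fold change was -3.36, or -1.69 without that library (edgeR adjusted p = 0.349). At 5 min XUT_10F-209 had 25.4, 23.2 and 11.5 CPM, against 67.4 and 305 CPM, and was at -3.22, or -1.75 without it (edgeR adjusted p = 0.0993). XUT_7R-93 had 24.6, 23.2 and 21.0 CPM at 5 min, against 57.3 and 129 CPM, and was at -2.02, or -1.32 without it (edgeR adjusted p = 0.0728). In all 5 both no-label libraries lay above every labelled library compared, as their choice required.

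No label against total RNA gave no call. EdgeR called 0 of 1652 XUTs, where 0.0% of all features were called in either direction. At an unadjusted p under 0.05, 120 XUTs were higher and 70 lower, against 736 and 497 of all 11688 features. DESeq2 called 12 XUTs higher and 7 lower, against 68 and 34 over all features. The XUT median was 0.20, against 0.01 over all features. Of the 4 smallest p-values, 3 belonged to rows with a high value in no-label replicate 2 alone. XUT_12R-50 had 1.86 and 77.0 CPM without label, against 0.629, 1.25 and 0 CPM in total RNA, and XUT_4F-529 had 11.4 and 171 CPM, against 3.14, 9.19 and 5.09 CPM. XUT_14R-330, opposite the iron reductase gene FRE4 (r = 1.00), had 14.4 and 153 CPM, against 11.9, 11.5 and 14.1 CPM. XUT_10R-143, the other, had 3.18 and 5.36 CPM, against 0, 0.493 and 0.146 CPM. Each of the 4 had an edgeR adjusted p of 0.438. Without no-label replicate 1, the fit called 48 XUTs higher and 16 lower, but the no-label arm is then replicate 2 alone, assumed to vary like the other groups.

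By level per length, XUT rows spanned a wide range. The mean RPKM over the 9 labelled libraries was 16.6 for the median XUT and over 100 for 81 of them. XUT_7R-12, opposite the zinc transporter gene ZRT1 (r = 0.99), was highest on average, at 633, 3289 and 783 RPKM at 1.5 min, 397, 1589 and 617 RPKM at 2.5 min and 516, 1605 and 678 RPKM at 5 min, against 679, 1702 and 456 RPKM in total RNA. Timecourse 2 was highest in each group, and the RPKM of labelled and total RNA overlapped, while the TMM-scaled counts fell at 2.5 min (-1.82, edgeR adjusted p = 0.0465). XUT_12F-188, beside TAR1 of the ribosomal DNA, had 3260, 1426 and 360 RPKM at 1.5 min, against 92.5, 62.6 and 10.1 RPKM in total RNA, with timecourse 1 highest and timecourse 3 lowest at every labelling time. XUT_8R-16, opposite the methionine permease gene MUP3 (r = 0.97), had the same order, with 1722, 1382 and 422 RPKM at 1.5 min and 824, 183 and 46.5 RPKM at 5 min, against 101, 36.4 and 8.54 RPKM in total RNA.

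The other rows of that rank were XUT_9R-38, XUT_2F-118, XUT_11R-166, XUT_16R-376 and XUT_10F-158, with mean levels of 877, 853, 662, 607 and 509 RPKM over the labelled libraries. XUT_9R-38 and XUT_11R-166 lie in stretches that hold snR68 and snR69 on the other strand, but their counts followed those snoRNA rows at r of 0.48 and 0.55 only. XUT_10F-158, opposite UBX6 (r = 0.99), had 619, 1032 and 386 RPKM at 1.5 min, against 59.9, 39.2 and 2.25 RPKM in total RNA, yet did not pass (log2 fold change 2.54, edgeR adjusted p = 0.061). XUT_16R-376, opposite the membrane organiser gene NCE102, had 463, 722 and 810 RPKM at 1.5 min, against 376, 578 and 132 RPKM in total RNA.

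XUTs differed little by strand and more by length and chromosome. At 1.5 min against total RNA, 98 of 839 forward and 93 of 803 reverse XUTs were higher, with median log2 fold changes of 0.73 and 0.63. The 405 XUTs of 252 to 417 nt had a median of 0.98 and the 413 of 1081 nt and over one of 0.51, while 10.9% of the short and 13.6% of the long ones were called higher. Among chromosomes the median ran from -0.01 on III, with 1 of 42 higher, to 0.97 on VIII, with 11 of 81 higher. XUTs tied to an opposite-strand gene at r over 0.95 had 65 of 589 higher and 39 lower, those with no such gene 117 of 1011 higher and 48 lower, and the 42 tied to a same-strand gene alone 9 higher and 0 lower with a median of 2.00. None of these divisions was tested.

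Genes of RNA decay and related steps were followed through a list of 48 names, which covers 46 genes of decapping, nonsense-mediated decay, the exosome, deadenylation, transcription termination and chromatin. At 1.5 min against total RNA 2 were higher and 3 lower, at 2.5 min 1 and 2, and at 5 min 1 and 1, and none was called in the other 4 comparisons. Over all features 6.71% were higher and 11.4% lower at 1.5 min, and 3.26% were higher and 8.47% lower at 5 min, so these counts do not set the list apart. The shares at 2.5 min were 4.86% and 10.2%. XRN1 itself did not pass at any time. It had 72.7, 55.1 and 48.5 CPM at 1.5 min, against 100.0, 112 and 86.0 CPM in total RNA (log2 fold change -0.76 ± 0.26, edgeR adjusted p = 0.0656). The decapping enzyme gene DCP2 was higher at every time, with 42.7, 37.6 and 47.6 CPM at 1.5 min, against 13.2, 23.1 and 21.2 CPM (1.13 ± 0.28, edgeR adjusted p = 0.0167). NAM7 had 55.7, 43.1 and 61.7 CPM at 1.5 min, against 72.9, 82.9 and 156 CPM, and did not pass (-0.96 ± 0.31, edgeR adjusted p = 0.0534).

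CCR4, a deadenylase of the Ccr4-Not complex, was lower at every time, with 29.9, 35.9 and 24.6 CPM at 1.5 min, against 95.6, 116 and 65.0 CPM in total RNA (-1.62 ± 0.35, edgeR adjusted p = 0.00831). NMD2, the Upf2 subunit of nonsense-mediated decay, passed as higher at 1.5 min (1.17 ± 0.34, edgeR adjusted p = 0.0340), with values of 0.79 and 0.68 at 2.5 and 5 min. DHH1, an activator of decapping, passed as lower at 1.5 min (-1.02 ± 0.28, edgeR adjusted p = 0.0283). NAB3, which helps end short non-coding transcripts, passed as lower at 1.5 and 2.5 min (-1.08 ± 0.33 and -1.21 ± 0.33, edgeR adjusted p = 0.0424 and 0.0301).

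The signs of the lower decay genes depend on the scaling. Scaled by library size alone, CCR4 was at 0.30, DHH1 at 0.87, NAB3 at 0.95, NAM7 at 1.10 and XRN1 at 1.17 at 1.5 min against total RNA, so all 5 turned positive, while DCP2 and NMD2 stayed positive at 3.09 and 3.20. None of the 64 results of XUTs named by fold change or p-value turned sign under that scaling, but 16 lost the threshold. Among all XUTs 3 rather than 87 were called lower than total RNA at 1.5 min, and 1077 rather than 191 higher.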

How the data were processed

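Whole-number counts per feature and RPKM beside them were deposited by the authors, per the file headers. The submitters' processing notes list STAR 2.4.2a and R64, and no source used here names the counting tool or its strand setting. The no-label columns carry no timecourse number, and 2 further columns of values were not used. Features were kept by filterByExpr (minimum count 10), scaled by TMM and tested with edgeR 4.0.16 (quasi-likelihood, 4 groups, or 5 where no label was compared) in R 4.3.3, with DESeq2 1.42.0 as an alternative, and the script was checked on simulated counts. CPM in the text use the TMM factors of the 5-group fit. Same-numbered libraries come from 1 timecourse, per the labels, and deviated together (r of 0.25 to 0.88 in 18 pairs). Shares and ratios were tested by exact permutation (scipy 1.17.1). XUTs were named by rule: for each labelling time against total RNA the 8 most positive and 6 most negative log2 fold changes among calls without overlap (5 and 5 elsewhere), the 4 smallest p-values where none passed, and the 8 highest by mean RPKM. Decay genes were named if called, with XRN1, DCP2 and NAM7 in any case. The other pairs shown were chosen after their values were seen. Members, lists and tests were chosen with earlier results of these data known. Depth ran from 3618310 counts (total RNA replicate 1) to 65173280, and counting intervals cover counting error only.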

Additional observations from a re-analysis of the deposited data

How the results depend on the processing

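The log2 difference of the XUT share to total RNA kept its sign at 1.14, 1.04 and 0.76 (1.5, 2.5 and 5 min) with protein-coding counts as denominator. It was 1.28, 1.14 and 0.81 for XUTs with no closely correlated protein-coding gene, a setting chosen after seeing the data. No label against total RNA was at -0.37 with all counts as denominator, against 0.49 in the report. The cause was not tested in these or the following.

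Scaled by library size alone, 1077 XUTs were higher and 3 lower than total RNA at 1.5 min. The numbers were 1061 and 3 at 2.5 min, then 893 and 4 at 5 min. Relative to no label they were 915 and 0 for 1.5 min, then 705 and 1 for 5 min. Over all 11513 features this scaling called 6587, 6801 and 6046 higher than total RNA at 1.5, 2.5 and 5 min. Against no label it called 6005 and 5275 of all 11688 features higher at 1.5 and 5 min. DESeq2's Wald test gave 430 higher at 1.5 min, 349 higher and 119 lower at 2.5 min and 220 and 122 at 5 min against total RNA, 200 and 64 at 1.5 min and 91 and 71 at 5 min against no label, 1 and 13 for 5 against 1.5 min, and 12 and 7 for no label against total RNA. Over all features DESeq2 called 1798, 1554 and 1227 higher and 1742, 1609 and 1469 lower than total RNA at 1.5, 2.5 and 5 min. Against no label it called 890 and 547 higher and 928 and 751 lower at 1.5 and 5 min. For 5 against 1.5 min it called 46 and 58, and for no label against total RNA 68 and 34. The fit over all 5 groups gave 64 and 51 XUTs at 2.5 min and 30 and 45 at 5 min. The replicate block gave 169 higher at 2.5 min and 93 at 5 min, against 108 and 58 without it. Over all features the block gave 859 and 634 higher, against 559 and 375. The block ended no call of a named XUT.

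With libraries or timecourses left out, calls of XUTs against total RNA ranged over 0 to 409 higher and 0 to 149 lower at 1.5 min, 0 to 352 and 0 to 150 at 2.5 min, and 0 to 285 and 0 to 156 at 5 min. Without total RNA replicate 3, calls over all features also rose at 1.5 min, to 1740 higher and 2042 lower. Against no label XUT calls ranged over 0 to 38 and 0 to 37 at 1.5 min, and 0 to 16 and 0 to 31 at 5 min, and no label against total RNA over 0 to 48 and 0 to 16. Leaving out 1 no-label library leaves an arm of 1, assumed to vary like the other groups.

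Of the 46 decay genes, 5, 3 and 2 passed at 1.5, 2.5 and 5 min against total RNA. Library size alone gave 37, 38 and 34, DESeq2 11, 7 and 9, the replicate block 8 at 1.5 min and 7 at 5 min, and the 5-group fit 2 at 1.5 min and 1 at 5 min. Over all 11513 features library size alone called 6587, 6801 and 6046 higher and 90, 73 and 65 lower at the 3 times. Against no label, where none passed, library size alone gave 27 and 30 and DESeq2 2 and 1 at 1.5 and 5 min. Left-out libraries gave 0 to 12, 0 to 9 and 0 to 11 against total RNA, and 0 to 1 against no label at both times.

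For the 56 calls of named XUTs, 56 were lost in at least 1 fit with a library or timecourse left out. Total RNA replicates 1 and 3 had 330 and 453 XUTs at 0, which limits the precision of rises against total RNA.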
